A study of Homo sapiens with 24 samples.

Results

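Without ligand, MCF10A cells that carried the CYT2 isoform of the receptor ERBB4 held lower levels than vector cells of 22 of the 30 genes described here, among them the signalling inhibitors SPRY4 and DUSP5, the transcription factors FOSL1 and KLF6, the cytokines IL36G and IL1B and the coagulation genes F3 and THBD. After 2 h of neuregulin 1 (NRG1) 8 genes, the matrix protease MMP3 and the cytokine IL33 among them, were higher in CYT2 than in vector cells. Over all genes tested, 1.36% were lower without ligand and 0.121% were higher with NRG1. Both differences between the lines are parts of the comparison that chose the 30 genes, so these counts only describe them. The comparison described here is the difference of differences: the NRG1 effect in CYT2 cells minus the NRG1 effect in vector cells. It was chosen by line and ligand, and it rested on 16 of the 24 arrays, that is 8 of the 12 biological samples of the series. MCF10A is an established, non-tumorigenic human mammary epithelial line. The vector cells carried a control vector. CYT2 cells stably expressed the CYT2 isoform, which the series title calls full length JM-a ERBB4 and the sample labels call ICD CYT2. CYT1 cells, the third line, expressed the CYT1 isoform. Serum was withdrawn from all lines for 48 h before 2 h with or without NRG1, so the controls share the starvation. The labels do not name the promoter of the constructs, the number of clones or whether the biological samples were separate cultures, and a p-value here reflects only how far the samples of a group lie apart. Each of the 4 groups held 2 biological samples on 2 technical arrays each, and n = 2 throughout.

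ERBB4 is a receptor tyrosine kinase of the EGF receptor family. NRG1 binds it directly, the receptor pairs with itself or another family member, and its phosphorylated tail starts the RAS to ERK kinase cascade. ERK activity switches on immediate-early transcription factors, growth-factor ligands and the inhibitors that end the signal. The CYT1 tail holds a binding stretch for phosphatidylinositol 3-kinase that the CYT2 tail lacks. In mammary epithelium NRG1 and ERBB4 are known for their part in lobule growth and milk production.

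Between 18745 and 20370 of the 47323 probes were detected on each array. All 6 measured basal mammary markers, KRT5 and KRT14 among them, were detected on all 16 arrays, as were 7 of 8 general epithelial markers. The fibroblast markers LUM, PDGFRB and THY1, the leukocyte marker PTPRC and the endothelial markers PECAM1, VWF and CDH5 were detected on none. Other members of these lists were detected, namely DCN, CD14 and CD68 on all 16 arrays, COL1A1 on 12, COL1A2 on 9 and MS4A1 on 7. Of the luminal mammary markers, MUC1, FOXA1, GATA3 and AGR2 were detected on all 16 arrays, ESR1 on 9, KRT19 on 1, and PGR and ELF5 on none. The summed normalised intensity of the 8 general epithelial markers was 17919 and 17317 in vector cells without and with NRG1, and 14554 and 15432 in CYT2 cells. That of the 3 measured fibroblast markers was 264 to 278 in the 4 groups, and that of the 3 measured immune and endothelial markers was 538 to 597. No probe of ERBB4 passed the detection filter, so the introduced receptor could not be followed and the lines are known from their labels. On the first principal component of the 12 biological samples, which held 24.5% of the variance, the CYT2 samples without ligand stood apart at 13.0 and 17.3. The other vector and CYT2 samples lay between -5.03 and -0.28. The results below rest on those CYT2 samples, and the counts without each of them close the account. In bulk RNA, fewer cells that express a gene and less RNA per cell cannot be told apart.

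The NRG1 effect differed between CYT2 and vector cells in 30 of 12357 genes (0.243% of the genes tested), at an adjusted p under 0.05 from the limma fit over all 12 samples. It was more positive in CYT2 cells in 27 genes (0.218%) and more negative in 3 (0.0243%). An unadjusted p under 0.05 was reached by 1024 genes (8.29%), these 30 included. Among the 27 genes the difference ran from 0.78 to 2.61 on the log2 scale with a median of 1.33, where 1 is a doubling, and over all genes its median was -0.02. In all 30 genes each CYT2 change from sample to sample lay outside the range of the vector changes, which held in 23.5% of all genes. The choice of the genes by this difference fixes that separation, and nothing is read from it. On log2 intensities without background correction the difference was smaller by over 1.5 times in 15 of the 30 genes, MMP3, MMP10, LRRC8C, IFFO1, S1PR3, HS3ST1, THBD, IL33, IL36G, IL7R, ACTMAP, SPHK1, FZD2, SPRY4 and METRNL, and at its lowest it was 33.1% of the value given here. On that scale 24 of the 30 passed, and MMP10, HS3ST1, IL36G, SPHK1, FZD2 and METRNL did not. On the authors' value table the same 15 were smaller by over 1.5 times, and 4 of the 30 passed, namely MMP3, F3, S1PR3 and ANGPTL4. The arms of the comparison are given next as a description, because each is a part of the difference that chose the genes. All 27 rose with NRG1 in CYT2 cells, where 1.36% of all genes rose, and all 3 fell, where 0.291% fell. The median rise of the 27 in CYT2 cells was 1.21, and the median change in vector cells was -0.11 with a range of -0.55 to 0.09. NRG1 changed 0 genes in vector cells by limma (0%), while 500 genes, 6 of the 30 among them, had an unadjusted p under 0.05 there.

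A difference of differences can arise before the ligand or after it. Its size equals the CYT2 minus vector difference with NRG1 minus the same difference without ligand, and the plot of both parts shows them for every gene. Which is larger follows from the sign of the line difference averaged over both ligand states, whose estimate is uncorrelated with the difference of NRG1 effects in this balanced layout and did not choose the genes. By that sign the larger part lay before the ligand in 22 genes and after NRG1 in 8, and over all genes tested it lay before the ligand in 57.4%. The averaged difference itself passed the threshold in 11 of the 30 genes, against 2.49% of all genes. Both differences are judged by the same estimated spread of a gene. Choosing genes by the first thus favours passing on the second, and nothing is read from that share. On the side before the ligand the averaged difference passed for IL36G, F3, KLF6, DUSP5, IL1B, GBP1, METRNL and THBD. On the side after NRG1 it passed for MMP3, IL33 and IL7R. Its values were 0.70, 0.55 and 0.64 for the latter and ran from -0.86 (IL36G) to -0.45 (IL1B) for the former. In the other 19 the sign alone places the gene, and the 2 parts were not separated by the test. Taken as parts, 22 of the 27 positive genes lay lower in CYT2 cells before the ligand (1.36% of all genes did). With NRG1, 8 were higher, namely MMP3, IL33, IL7R, LRRC8C, ANGPTL4, MMP10, HS3ST1 and GJB2 (0.121% of all genes). HS3ST1 was at the edge of the threshold (adjusted p = 0.0498). MMP3, LRRC8C and GJB2, 3 genes, passed both ways, and for the other 19 positive genes the line difference with NRG1 did not pass. The median of the 27 was -0.91 without ligand and 0.42 with NRG1.

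**Figure D1:**
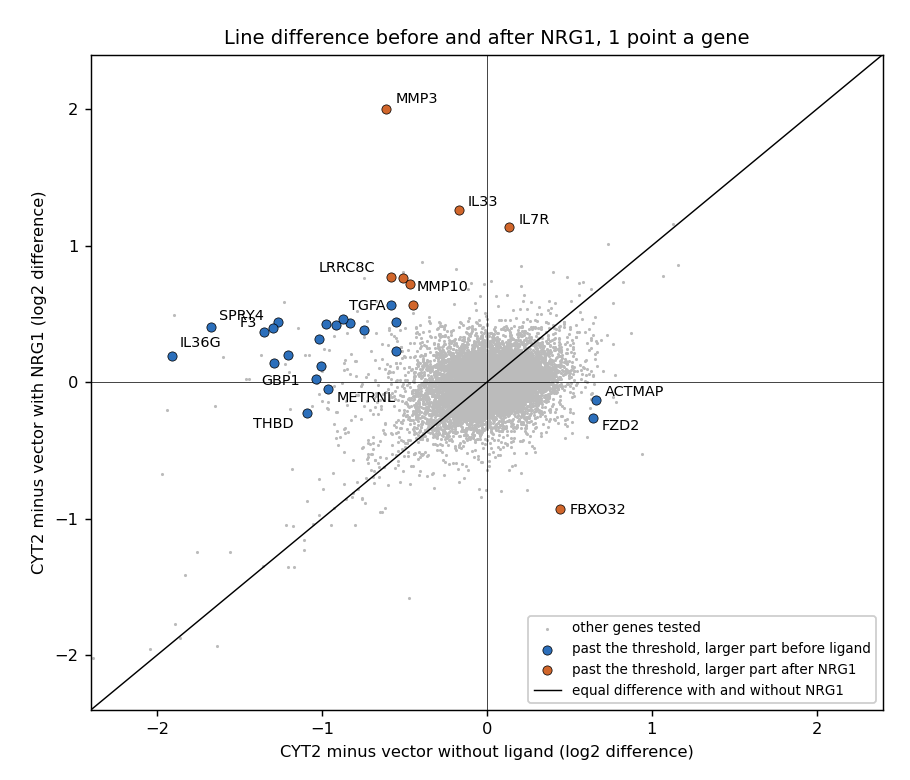
Each point is a gene, placed by its CYT2 minus vector difference without ligand (x axis, log2) and with NRG1 (y axis, log2), and distance above the diagonal is the difference of NRG1 effects. Most of the 27 positive genes lie far to the left and close to the horizontal axis, with a median of -0.91 on x and 0.42 on y, while MMP3, IL33 and IL7R lie high above it.

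MMP3, stromelysin-1, a secreted protease that cuts matrix proteins, had the largest difference of the 30 genes on the background-corrected scale. MMP3 stood at 5.57 and 5.78 in vector cells without ligand, 5.63 and 5.61 in vector cells with NRG1, 5.02 and 5.11 in CYT2 cells without ligand and 7.52 and 7.72 in CYT2 cells with NRG1. The CYT2 samples with NRG1 were far above all others, and the CYT2 samples without ligand were the lowest, where 3 of 4 arrays detected the probe. The NRG1 effect differed by 2.61 ± 0.16 (SE, adjusted p = 1.62e-05). For MMP3 that value was 1.20 without background correction (adjusted p = 1.93e-04) and 1.24 on the authors' table (adjusted p = 0.00318), where it ranked 11 and 12 among all genes tested. The chemokine gene CXCL8, which is not among the 30, had the largest difference on both, 1.90 and 1.94. NRG1 raised MMP3 5.88-fold in CYT2 cells, and CYT2 cells with NRG1 exceeded vector cells with NRG1 4.01-fold, while those without ligand were 1.53-fold lower, so 23.3% of the difference lay before the ligand. MMP10, stromelysin-2, is a close relative of MMP3. MMP10 lay at 5.13 and 5.22 in vector cells without ligand, 4.65 and 4.60 in vector cells with NRG1, 4.79 and 4.63 in CYT2 cells without ligand and 5.40 and 5.29 in CYT2 cells with NRG1. Its level was near background: it was detected on 3, 0, 1 and 4 of the 4 arrays of these groups in the same order. The NRG1 effect on MMP10 differed by 1.19 ± 0.16 (SE, adjusted p = 0.0108), by 0.40 without background correction (adjusted p = 0.0641) and by 0.42 on the authors' table (adjusted p = 0.203). Its size depended on how background was treated. With NRG1 it was at least 1.3-fold higher in CYT2 than in vector cells, and vector cells without ligand were at least 1.16-fold above those with it.

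The alarmin IL33, an IL-1 family cytokine that epithelial cells keep in the nucleus, had only a small part of its difference before the ligand. IL33 stood at 5.82 and 6.09 in vector cells without ligand, 5.84 and 5.79 in vector cells with NRG1, 5.81 and 5.76 in CYT2 cells without ligand and 6.87 and 7.28 in CYT2 cells with NRG1. Only the CYT2 samples with NRG1 departed from the rest, and the other 3 groups overlapped. The NRG1 effect on IL33 differed by 1.43 ± 0.23 (SE, adjusted p = 0.0255), and by 0.67 without background correction. CYT2 cells exceeded vector cells 2.4-fold with NRG1 (adjusted p = 0.0059), and 11.9% of the difference lay before the ligand. IL7R encodes the receptor chain that binds interleukin 7. IL7R read 6.75 and 6.70 in vector cells without ligand, 6.42 and 6.44 in vector cells with NRG1, 7.01 and 6.71 in CYT2 cells without ligand and 7.66 and 7.47 in CYT2 cells with NRG1. The CYT2 samples with NRG1 were the highest, the groups without ligand lay close together, and the vector samples with NRG1 were the lowest. Its NRG1 effect differed by 1.0 ± 0.16 (SE, adjusted p = 0.0278), with a line difference of 0.14 before the ligand and 1.13 after it (adjusted p = 0.00111), so the share before the ligand was -13.7%. A second, dimmer IL7R probe gave -0.16 and 0.93.

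MMP10 was placed after NRG1 by sign alone, as its averaged line difference did not pass (adjusted p = 0.477 by limma). In 3 more positive genes the larger part lay after NRG1 by sign alone, and the averaged line difference did not pass. ANGPTL4, a secreted inhibitor of lipoprotein lipase, stood in CYT2 cells at 9.23 and 8.96 without ligand and 10.24 and 10.27 with NRG1, against 9.65 and 9.55 (without) and 9.56 and 9.43 (with NRG1) in vector cells. LRRC8C, a subunit of the volume-regulated anion channel, stood at 5.32 and 5.41 without and 6.78 and 6.67 with NRG1 in CYT2 cells, against 5.87 and 6.02 without and 5.98 and 5.93 with it in vector cells. HS3ST1, an enzyme that adds sulfate to heparan sulfate, stood at 5.01 and 5.05 without and 5.92 and 6.01 with NRG1 in CYT2 cells, against 5.43 and 5.53 without and 5.42 and 5.39 with it in vector cells, and 2 of 4 arrays detected it in CYT2 cells without ligand. In all 3 the vector samples lay between the CYT2 samples of the 2 ligand states. The NRG1 effects differed by 1.27, 1.35 and 1.01, with 39.9%, 43% and 44.2% of each before the ligand. GJB2, the gap junction protein connexin 26, was even between the parts. GJB2 stood at 11.50 and 11.59 in vector cells without ligand, 11.53 and 11.70 in vector cells with NRG1, 10.88 and 11.04 in CYT2 cells without ligand and 12.11 and 12.24 in CYT2 cells with NRG1. Its line difference was -0.58 without ligand and 0.56 with NRG1, both past the threshold, and its place on the side before the ligand (50.7%) turned when single samples were left out.

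**Figure D2:**
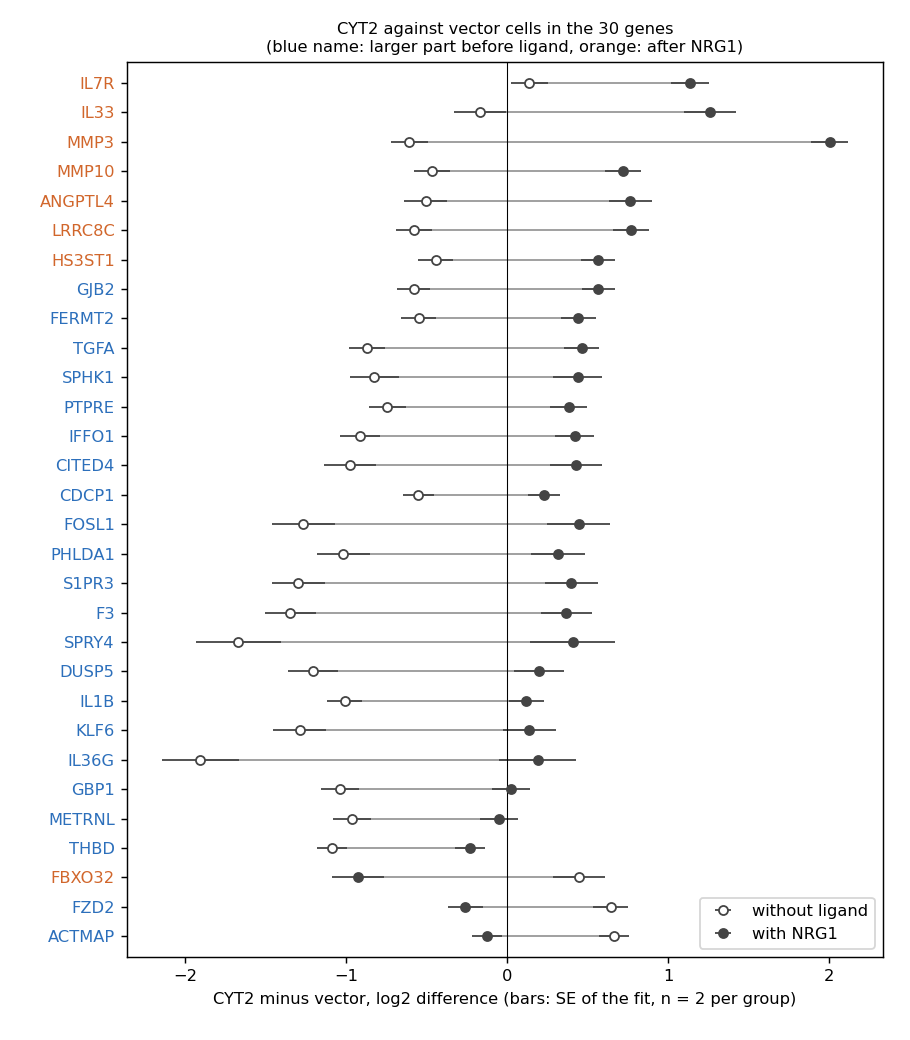
For each of the 30 genes, the CYT2 minus vector difference without ligand (open) and with NRG1 (filled) on the log2 scale. Whiskers are standard errors of the fit, with n = 2 per group. Positive genes are ordered by the share before the ligand, from THBD (-1.09 without ligand, -0.23 with NRG1) at the bottom to IL7R (0.14 and 1.13) at the top.

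Among the genes with the larger part before the ligand, the inhibitors and ligands of the receptor pathway come first. Of those given here, DUSP5 passed on the averaged line difference, and SPRY4 and TGFA are placed by sign alone. SPRY4, a Sprouty protein that restrains the signal between receptor and ERK, had one of the widest ranges. SPRY4 stood at 7.53 and 7.65 in vector cells without ligand, 7.63 and 7.62 in vector cells with NRG1, 6.46 and 5.38 in CYT2 cells without ligand and 8.29 and 7.77 in CYT2 cells with NRG1. The CYT2 samples without ligand were the lowest and differed from each other by more than a log2 unit, and the vector samples hardly moved. The NRG1 effect on SPRY4 differed by 2.08 ± 0.37 (SE, adjusted p = 0.0468), and by 1.14 without background correction. CYT2 cells were 3.18-fold below vector cells without ligand and rose 4.31-fold with NRG1. A second, dimmer SPRY4 probe gave a smaller difference of 0.77, with the larger part after NRG1 (-0.31 without ligand and 0.45 with it). DUSP5, a phosphatase that removes phosphate from ERK in the nucleus, stood at 8.69 and 8.35 in CYT2 cells without ligand, against 9.60 and 9.85 in vector cells. With NRG1 the lines overlapped, at 10.02 and 9.63 in CYT2 cells and 9.53 and 9.73 in vector cells. Its NRG1 effect differed by 1.40 ± 0.22 (SE, adjusted p = 0.0245), 85.8% of it before the ligand. TGFA encodes a ligand of the EGF receptor. TGFA stood at 9.37 and 9.51 in vector cells without ligand, 9.45 and 9.36 in vector cells with NRG1, 8.68 and 8.46 in CYT2 cells without ligand and 9.93 and 9.81 in CYT2 cells with NRG1. CYT2 cells were 1.83-fold lower without ligand and 1.38-fold higher with NRG1, and the NRG1 effect differed by 1.33 ± 0.16 (SE, adjusted p = 0.00754). A second TGFA probe gave 1.29.

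The transcription factors FOSL1 and KLF6 followed the same course. KLF6 passed on the averaged line difference, while FOSL1, CITED4, PHLDA1, SPHK1 and S1PR3 are placed by sign alone. FOSL1 is the AP-1 subunit FRA1. FOSL1 stood at 8.55 and 8.0 in vector cells without ligand, 7.93 and 7.96 in vector cells with NRG1, 7.15 and 6.86 in CYT2 cells without ligand and 8.60 and 8.19 in CYT2 cells with NRG1. The CYT2 samples without ligand lay below all others, and the CYT2 samples with NRG1 overlapped the vector samples without it. The NRG1 effect on FOSL1 differed by 1.71 ± 0.28 (SE, adjusted p = 0.0273). KLF6, a zinc-finger factor induced early by growth factors, stood at 9.95 and 9.49 in CYT2 cells without ligand against 10.99 and 11.03 in vector cells, 2.44-fold lower. With NRG1 the lines overlapped, at 11.27 and 10.80 in CYT2 cells and 10.85 and 10.94 in vector cells, and the NRG1 effect differed by 1.43 ± 0.23 (SE, adjusted p = 0.0278). CITED4, a partner of the coactivators CBP and p300, had a difference of 1.40, with -0.98 without ligand and 0.42 with NRG1. Further target genes of the ERK cascade were PHLDA1 (1.33, with -1.02 without ligand and 0.31 with NRG1) and SPHK1 (1.26, with -0.83 and 0.44), the kinase that makes sphingosine 1-phosphate. S1PR3, a receptor for that lipid, was among the 30 genes too. S1PR3 measured 7.40 and 7.35 in vector cells without ligand, 7.18 and 7.03 in vector cells with NRG1, 6.35 and 5.80 in CYT2 cells without ligand and 7.53 and 7.47 in CYT2 cells with NRG1. S1PR3 was 2.46-fold lower in CYT2 cells without ligand, and its NRG1 effect differed by 1.70 ± 0.23 (SE, adjusted p = 0.0108).

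Of the 30 genes, IL36G had the widest gap before the ligand. It encodes an IL-1 family cytokine of stratified epithelia. IL36G stood at 6.83 and 7.28 in vector cells without ligand, 6.87 and 7.0 in vector cells with NRG1, 5.41 and 4.88 in CYT2 cells without ligand and 7.54 and 6.72 in CYT2 cells with NRG1. The 2 CYT2 samples without ligand were far below the rest and only 2 of their 4 arrays detected the probe, while the CYT2 samples with NRG1 overlapped the vector samples. CYT2 cells were 3.75-fold lower without ligand and rose 3.95-fold with NRG1, and the NRG1 effect differed by 2.10 ± 0.34 (SE, adjusted p = 0.0273). For IL36G the value was 0.93 without background correction (adjusted p = 0.0952) and 0.94 on the authors' table (adjusted p = 0.282). IL1B, interleukin 1 beta, stood in CYT2 against vector cells at 10.25 and 10.04 against 11.12 and 11.18 without ligand and at 11.29 and 11.09 against 11.12 and 11.03 with NRG1. That is 2.01-fold lower before the ligand and 1.08-fold higher after it, and the NRG1 effect differed by 1.13 ± 0.15 (SE, adjusted p = 0.0108). GBP1, a GTPase known as interferon-inducible, was 2.05-fold lower without ligand and 1.02-fold higher with NRG1, so 97.9% of its difference of 1.06 lay before the ligand. METRNL, a secreted protein related to meteorin, stayed slightly below vector cells in the mean (-0.96 without ligand, -0.05 with NRG1), and its NRG1 effect differed by 0.91.

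Both coagulation genes among the 30, the initiator F3 and the inhibitory receptor THBD, were low before the ligand. F3 encodes tissue factor. F3 stood at 10.97 and 10.84 in vector cells without ligand, 10.62 and 10.61 in vector cells with NRG1, 9.81 and 9.31 in CYT2 cells without ligand and 11.13 and 10.83 in CYT2 cells with NRG1. The 2 CYT2 samples without ligand lay below every other sample. F3 was 2.55-fold lower in CYT2 cells without ligand and 1.29-fold higher with NRG1, and its NRG1 effect differed by 1.72 ± 0.22 (SE, adjusted p = 0.00999). A second F3 probe gave a smaller difference of 1.19 ± 0.32 (SE), with -0.83 without ligand and 0.36 with NRG1. That probe did not pass the threshold over all probes. THBD encodes thrombomodulin. THBD stood at 7.60 and 7.72 in vector cells without ligand, 7.65 and 7.74 in vector cells with NRG1, 6.55 and 6.59 in CYT2 cells without ligand and 7.47 and 7.47 in CYT2 cells with NRG1. Its samples agreed closely within groups, and CYT2 cells stayed below vector cells in both ligand states. THBD was 2.13-fold lower without ligand (adjusted p = 3.06e-04) and 1.17-fold lower with NRG1 (adjusted p = 0.45), so 127% of its difference lay before the ligand. The NRG1 effect differed by 0.86 ± 0.13 (SE, adjusted p = 0.0234).

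The remaining positive genes with the larger part before the ligand, by sign alone, were surface, adhesion and cytoskeletal genes. They were PTPRE, a receptor-type tyrosine phosphatase, FERMT2, the integrin activator kindlin-2, CDCP1, a membrane protein phosphorylated by SRC kinases, and IFFO1, an intermediate filament family member. Their NRG1 effects differed by 1.13, 0.99, 0.78 and 1.33. Without ligand they stood -0.75, -0.55, -0.55 and -0.91 from vector cells, all past the threshold, and with NRG1 0.38, 0.44, 0.23 and 0.42, none past it. CDCP1 had 3 other probes, whose differences were 0.49, 0.37 and 0.05. Of the 30 genes, 11 had another kept probe, 15 probes in all. All 15 had the sign of the main probe, 12 placed the larger part on the same side, and 2, of TGFA and PTPRE, passed the threshold over all probes.

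**Figure D3:**
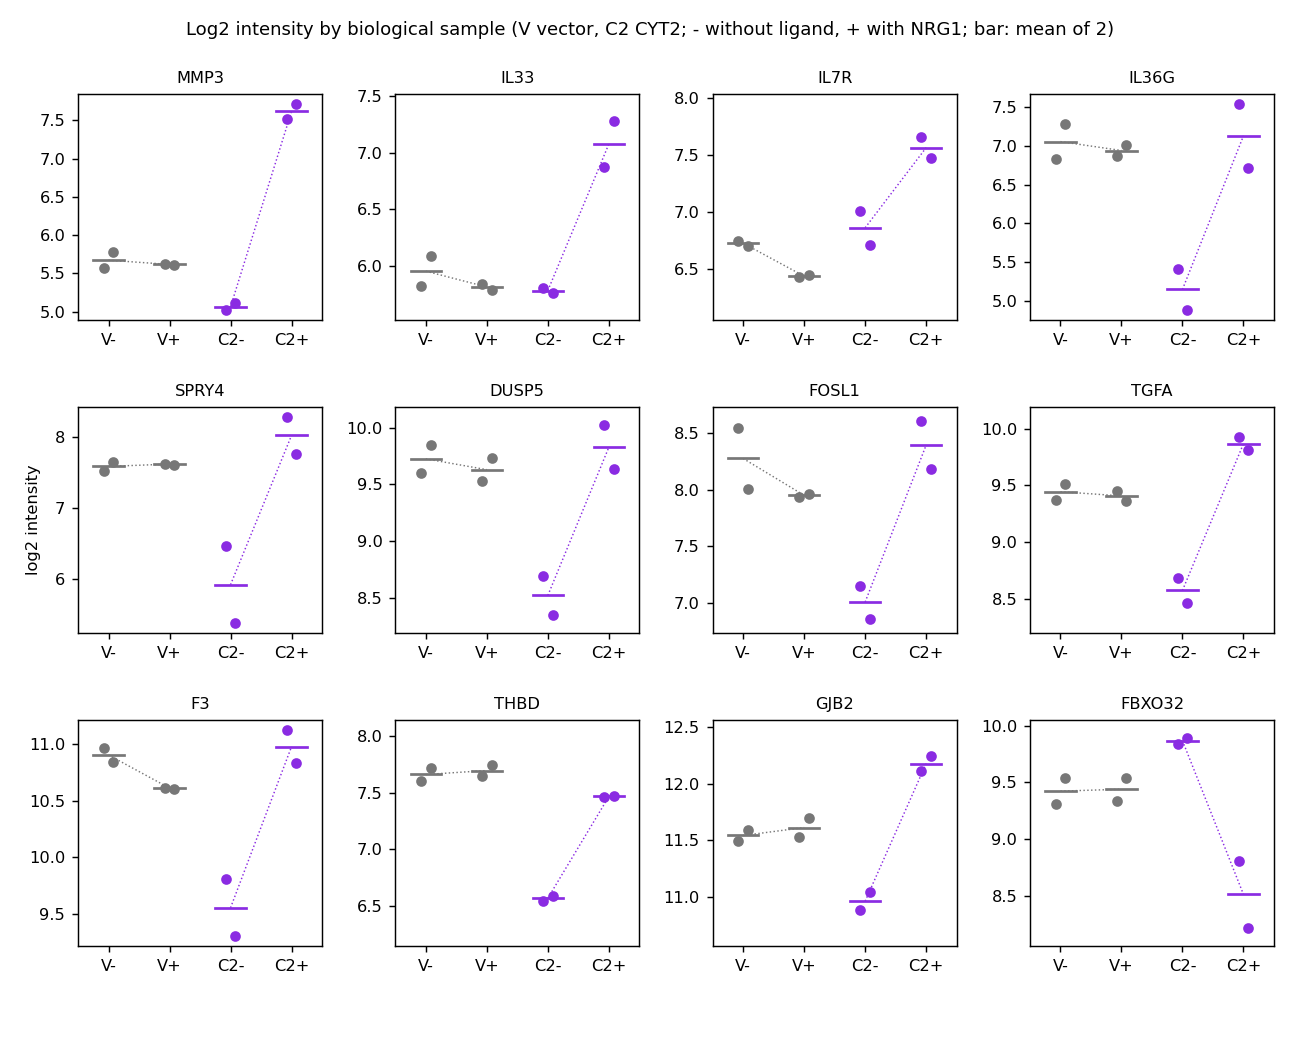
Log2 intensity of each biological sample (points) and group means (bars, n = 2) for 12 of the 30 genes in vector (V) and CYT2 (C2) cells without (-) and with (+) NRG1, each panel with its own y axis in log2 units. In IL36G, SPRY4, DUSP5, FOSL1, F3 and THBD the CYT2 samples without ligand are the lowest of the 8, in MMP3 and IL33 those with NRG1 are far above the rest, and FBXO32 runs the opposite way.

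In 3 genes the NRG1 effect was more negative in CYT2 cells, and in all 3 the sign alone places the larger part. FBXO32, a ubiquitin ligase subunit and a target of FOXO factors, was the only one with its larger part after NRG1. FBXO32 stood at 9.31 and 9.54 in vector cells without ligand, 9.34 and 9.54 in vector cells with NRG1, 9.84 and 9.90 in CYT2 cells without ligand and 8.81 and 8.21 in CYT2 cells with NRG1. The CYT2 samples were the highest without ligand and the lowest with NRG1. The NRG1 effect differed by -1.37 ± 0.23 (SE, adjusted p = 0.0304), and CYT2 cells with NRG1 were 1.9-fold lower than vector cells with NRG1 (0.275% of all genes were lower there). A second FBXO32 probe gave -0.45, with the same larger part. FZD2, a receptor for Wnt ligands, and ACTMAP, a protease that matures actin, were higher in CYT2 cells before the ligand, where 0.575% of all genes were higher. FZD2 stood in CYT2 against vector cells at 6.86 and 6.75 against 6.21 and 6.12 without ligand and at 6.19 and 5.93 against 6.35 and 6.29 with NRG1. ACTMAP stood in the same order at 7.11 and 7.04 against 6.40 and 6.43 without ligand and at 6.53 and 6.54 against 6.67 and 6.65 with NRG1. For both genes the lines were apart without ligand, and with NRG1 all CYT2 samples lay below the vector samples. The NRG1 effects differed by -0.90 ± 0.15 (SE, adjusted p = 0.0335) for FZD2 and -0.79 ± 0.13 (SE, adjusted p = 0.0318) for ACTMAP.

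AP-1, the factor of which FOSL1 is a subunit, binds the letters TGACTCA. Promoters of 23 of the 30 genes were found in RefSeq (GRCh38.p14), each from 250 bases before the start site to 50 after it. None was at hand for MMP3, FOSL1, DUSP5, FBXO32, FZD2, IFFO1 and THBD, so these genes were not searched. The AP-1 letters, read on both strands, occurred in 2 of the 23, F3 and SPHK1 (8.7%), against 320 of the 9887 promoters of tested genes (3.24%). These 2 promoters are shown because they hold the AP-1 letters, with the match in capitals. All 27 positive genes rose with NRG1 in CYT2 cells, so that rise does not set F3 and SPHK1 apart. A link to FOSL1 was not tested.
F3: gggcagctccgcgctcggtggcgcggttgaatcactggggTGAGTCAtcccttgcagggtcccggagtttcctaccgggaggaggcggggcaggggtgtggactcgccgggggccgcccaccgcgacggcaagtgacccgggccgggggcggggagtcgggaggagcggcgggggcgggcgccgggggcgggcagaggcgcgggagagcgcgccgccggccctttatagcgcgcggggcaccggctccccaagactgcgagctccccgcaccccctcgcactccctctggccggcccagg
SPHK1: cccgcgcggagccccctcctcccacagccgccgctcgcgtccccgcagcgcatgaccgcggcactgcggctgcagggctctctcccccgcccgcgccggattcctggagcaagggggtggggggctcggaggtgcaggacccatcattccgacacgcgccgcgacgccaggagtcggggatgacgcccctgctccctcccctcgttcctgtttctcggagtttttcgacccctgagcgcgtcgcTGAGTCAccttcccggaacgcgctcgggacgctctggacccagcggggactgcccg
The F3 promoter is chr1:94541710-94542009, strand minus, and its match begins at -210 from the start site. The SPHK1 promoter is chr17:76382954-76383253, strand plus, and its match begins at -6 and overlaps no other motif searched. Among the other motifs, ETS letters (CCGGAAG) occurred in 2 of 23, ACTMAP and PTPRE, against 18.4% of all promoters, and TEAD letters (GGAATG) in 2, SPHK1 and SPRY4, against 10.7%. The kB site occurred in CITED4 and TGFA against 6.52% of all, and the CArG box, where serum response factor binds, in GBP1 against 1.05%. The CRE letters (TGACGTCA) and the FOX letters (GTAAACA) occurred in 0 of the 23. A match in a window says nothing of binding, and neither does its absence.

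Around these genes, lists of related genes show how far the pattern reached, each given by its counts and its median difference beside the same over all genes, where the median was -0.02, 44.7% lay above 0, 0.243% passed and 8.29% had an unadjusted p under 0.05. The shares of all genes with a line difference past the threshold were, as above, 1.36% lower and 0.575% higher in CYT2 cells without ligand and 0.121% higher with NRG1. Of the ERBB receptors and ligands, 8 were measured and 1, TGFA, passed, with a list median of 0.50. The receptors EGFR, ERBB2 and ERBB3 had differences of 0.02, -0.26 and -0.20, none of them past the threshold. HBEGF, another EGF receptor ligand, had 1.73 ± 0.52 (adjusted p = 0.291) and lay -1.94 from vector cells without ligand, while EREG and NRG1 itself had 0.80 and 0.80. In the RAS to ERK cascade, the kinases and adaptors that pass the signal, 0 of 14 genes passed by limma (2 had an unadjusted p under 0.05) and the median was 0.00. Of the inhibitors of receptor and ERK signalling, 2 of 18 passed, SPRY4 and DUSP5, and all 18 lay above 0 with a median of 0.57. ERRFI1, which binds and blocks ERBB kinases, had 1.30 (adjusted p = 0.174). Other ERK target genes had 2 of 16 past the threshold, PHLDA1 and SPHK1, and a median of 0.45, with TRIB1 at 1.82 (adjusted p = 0.081) and PHLDA2 at 0.99 (adjusted p = 0.0799).

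Of 25 immediate-early transcription factors, 2 passed, FOSL1 and KLF6, and 23 lay above 0, with a median of 0.57. In this list 7 genes were lower in CYT2 cells without ligand. MAFF, a small MAF factor, had 1.57 (adjusted p = 0.0565), and MYC 0.67. The interleukins, chemokines and colony-stimulating factors had the highest list median, 0.88, with 3 of 16 past the threshold (IL1B, IL36G and IL33), 4 lower in CYT2 cells without ligand and 1 higher with NRG1. An unadjusted p under 0.05 was reached by 11 of the 16. The largest difference in this list, 2.39, belonged to a gene that did not pass. IL24 had 1.27 (adjusted p = 0.0667), with a line difference of -0.39 before the ligand and 0.88 after it. Of the NF-kB subunits and feedback genes, 0 of 14 passed (1 had an unadjusted p under 0.05), and the median was 0.22. Matrix metalloproteinases and their inhibitors had 2 of 9, MMP3 and MMP10, and a median of 0.17, with MMP1 at 0.48. Of the plasminogen and coagulation genes 2 of 8 passed, F3 and THBD, with a median of 0.57. The urokinase PLAU and its receptor PLAUR had 1.03 (adjusted p = 0.101) and 1.36 (adjusted p = 0.162), and they lay -1.03 and -1.23 from vector cells without ligand.

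Lists with a median below 0 were fewer. Of 20 FOXO target genes 1 passed, FBXO32, and 5 lay above 0, with a median of -0.38. TXNIP, an arrestin-like protein that limits glucose uptake, had -0.88 (adjusted p = 0.081), with 0.08 before the ligand and -0.80 after it. PIK3IP1, an inhibitor of phosphatidylinositol 3-kinase, had -0.78, and SESN1 -0.63. Of 25 mitosis genes 0 passed (9 had an unadjusted p under 0.05), and the median was -0.24. In CYT2 cells without ligand 7 of them were higher than in vector cells (0.575% of all genes were), with a list median of 0.40 without ligand and 0.13 with NRG1. They thus moved with the state in which the 22 genes were low, and their part in that result was not tested. The YAP and TEAD targets had 0 of 14 past the threshold, 2 at an unadjusted p under 0.05, and a median of -0.12, with CCN2 at 1.47 (adjusted p = 0.264). Wnt receptors and feedback genes had 1 of 22, FZD2, with a median of 0.12. Integrins and laminins had 0 of 11 (2 at an unadjusted p under 0.05), with a median of 0.17, and keratinocyte differentiation genes 0 of 15 (4 at an unadjusted p under 0.05), with a median of 0.23 and SPRR2D at 1.48 (adjusted p = 0.0636). The genes nearest the threshold outside the 30 also included SOX7 (0.78, adjusted p = 0.0565), MAP3K9 (0.77) and MCL1 (0.87).

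**Figure D4:**
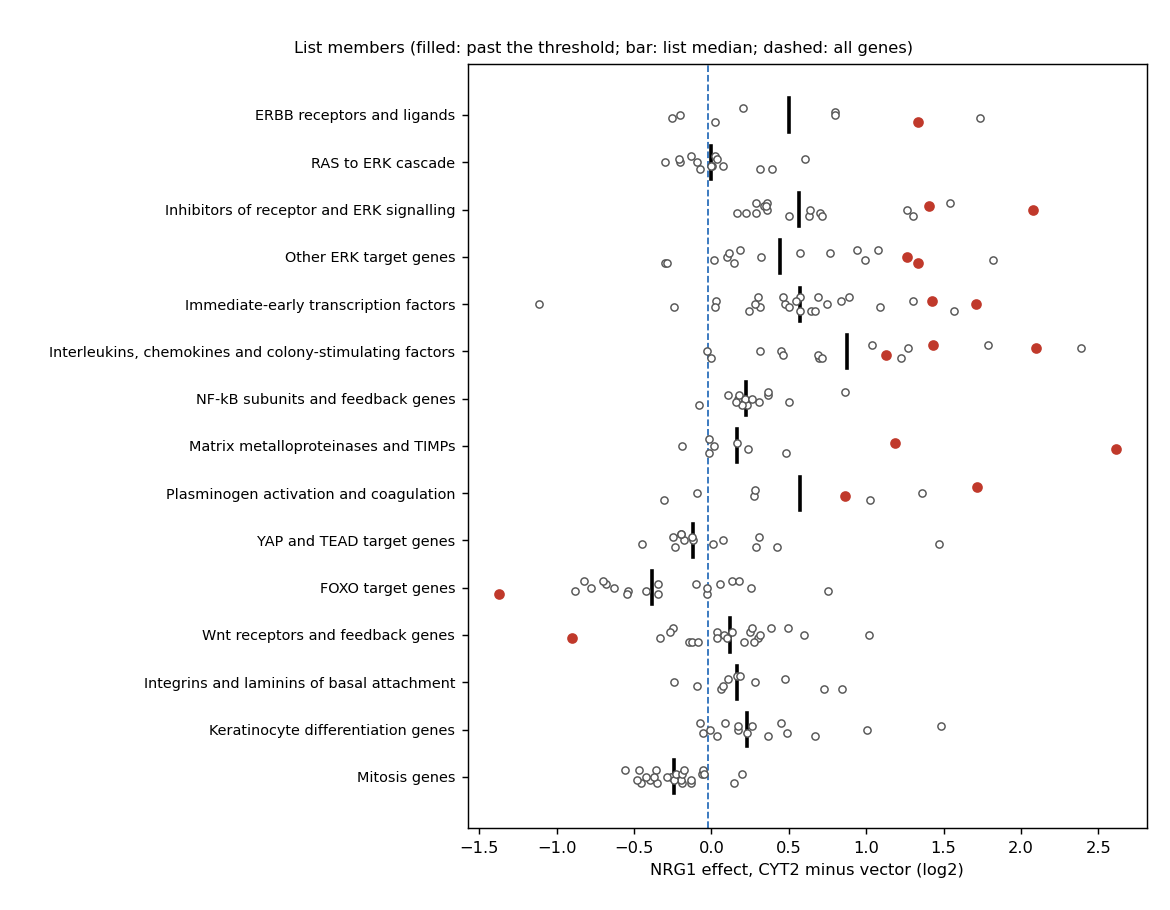
Difference of the NRG1 effects, CYT2 minus vector (x axis, log2), for each measured member of 15 gene lists, with filled points past the threshold, a bar at each list's median and a dashed line at the median of all genes (-0.02). The medians run from -0.38 for the FOXO targets to 0.88 for the interleukins and chemokines.

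CYT1 cells give the closest comparison. Their NRG1 effect was set against the same vector samples, so both comparisons share those samples and their values are only placed side by side. CYT1 minus vector passed in 0 genes by limma (0%), with a smallest adjusted p of 0.546, while 734 genes, 29 of the 30 among them, had an unadjusted p under 0.05. The vector samples that helped to choose the genes enter this count too, so it is no independent evidence. Over the 27 positive genes the median NRG1 effect was 0.65 in CYT1 cells and 1.21 in CYT2 cells, and the median difference from vector cells was 0.75 and 1.33. Without ligand the median line difference was -0.53 in CYT1 and -0.91 in CYT2 cells, and with NRG1 it was 0.22 and 0.42. The choice of these genes by the CYT2 difference favours larger CYT2 values. Nothing is therefore read from the order of the CYT1 and CYT2 medians. Without ligand 5 of the 27, F3, IL1B, THBD, GBP1 and METRNL, were lower in CYT1 than in vector cells (0.146% of all genes were). CYT2 cells without ligand were lower than CYT1 cells in 0 of the 30 genes by limma (0% of all genes), while 682 genes, 18 of the 30 among them, had an unadjusted p under 0.05 in either direction. The direct test of CYT1 against CYT2 passed for 1 gene, MMP3 (0.00809% of all genes), while 447 genes, 23 of the 30 among them, had an unadjusted p under 0.05. The CYT2 samples that helped to choose the genes enter the counts of 18 and 23 too, so neither is independent evidence. MMP3 stood at 5.33 and 5.55 in CYT1 cells without ligand and 6.17 and 6.29 with NRG1. Sample 1 of the CYT1 cells with NRG1 stood apart on the first principal component (-18.2), and both samples of that group agreed for MMP3. All CYT1 samples were below the CYT2 samples with NRG1. Its NRG1 effect was 0.79 in CYT1 and 2.56 in CYT2 cells, which differed by -1.77 ± 0.16 (SE, adjusted p = 0.00145). Without that sample 1, CYT1 minus vector again passed in 0 genes, the MMP3 value was -1.71 (adjusted p = 0.0213), and MMP3 was again the 1 gene past the threshold. IL36G, with 0.56 and 1.98, and SPRY4, with 1.10 and 2.11, did not pass (adjusted p = 1 for both).

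**Figure D5:**
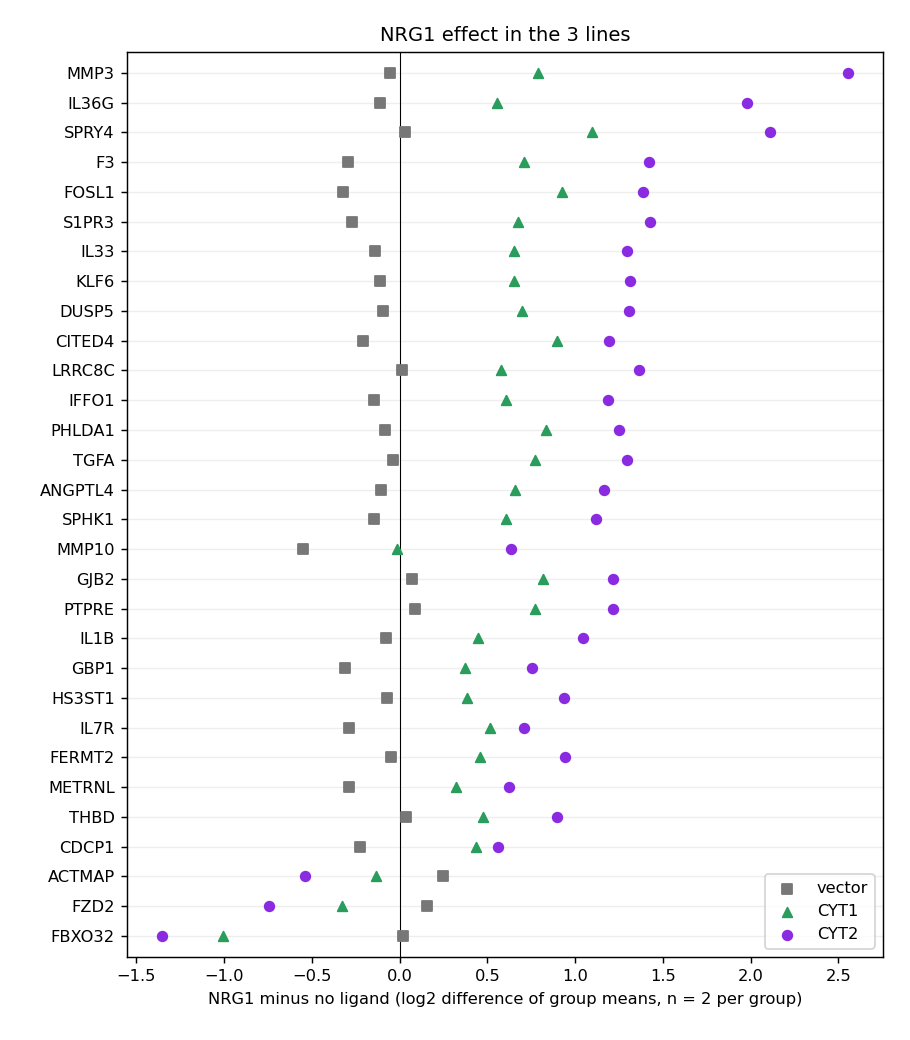
NRG1 minus no ligand (x axis, log2 difference of group means, n = 2 per group) in vector, CYT1 and CYT2 cells for the 30 genes, ordered by the CYT2 minus vector difference. The vector points lie between -0.55 and 0.25 and the CYT2 points lie farthest out, with medians of -0.11, 0.65 and 1.21 over the 27 positive genes, and the test between CYT1 and CYT2 passed for MMP3 alone. The genes were chosen by the CYT2 minus vector difference, which favours CYT2 points that lie farther out.

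Single samples decided how many genes passed. Without sample 1 of the CYT2 cells without ligand 47 genes passed, 23 of the 30 among them and 37 with the larger part before the ligand. Without sample 2 of that group 6 passed, all of them among the 30 and 4 with the larger part before the ligand. Without sample 1 or 2 of the vector cells without ligand 10 and 1 passed, without either sample of the vector cells with NRG1 1 passed, and without sample 1 or 2 of the CYT2 cells with NRG1 6 and 18. MMP3 was the single gene of the 30 that passed in all 8 of these fits, with differences of 2.51 to 2.72 on the background-corrected scale. All 30 kept their sign in each fit, and 29 kept the side of the larger part, GJB2 being the exception. SPRY4 ranged from 1.53 to 2.62 and IL36G from 1.69 to 2.51. With n = 2, a group left with a single sample was assumed to vary like the others.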

How the data were processed

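Per the file headers, the deposited scanner table gives an intensity (mean bead signal) and a detection p-value for 47323 probes on each array. The authors' deposited value table holds log2 values and equalled the log2 of those signals to within 5e-09, so it is not normalized. The scanner is not named in the sources used here. No file names a chip, so chips were not tested as batches. RNA came from the RNeasy kit and biotinylated cRNA from the TotalPrep kit, per the labels' protocols.

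With limma 3.58.1 in R 4.3.3, intensities were background-corrected, quantile normalized and logged by neqc (offset 16, negative controls inferred from detection p). An offset understates folds of dim genes, but the other treatments run gave smaller differences still for MMP10 and HS3ST1. These were 1.19 and 1.01 here, 0.57 and 0.58 with an offset of 50, and 0.40 and 0.33 without background correction. Probes detected (p under 0.05) on at least 4 of 24 arrays were kept, 23019 of 47323. The platform annotation paired 30113 probes with 1 gene symbol, of which 30074 were brought up to date, and it gave several symbols to 8 probes and none to 17202. The probe with the highest mean stood for its gene, giving 12357 genes. Technical arrays were averaged within each biological sample. The root mean square difference between the samples of a group was 0.158 to 0.243 in the 4 groups. Between the technical arrays of 1 sample, before that averaging, it was 0.188 to 0.208. One limma model of 6 group means on all 12 samples (6 residual and 6.31 prior degrees of freedom) gave every contrast, with Benjamini-Hochberg adjustment over all genes. The number of arrays limits the precision.

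The comparison, the 20 gene lists and the tests were chosen with earlier results of these data known. Genes named were all those past the threshold, the 5 next by p, up to 4 members of each list with the smallest unadjusted p under 0.05, and the ERBB receptors. CYT1 against vector and CYT2 against CYT1 without ligand were added after seeing the data. Samples of the same number did not deviate together in every pair (correlations of -0.06 to 0.23 among the 4 groups), so the numbers were not taken to pair samples. Alternatives covered normalization, filter, probe choice, technical arrays, samples in the fit, a replicate block and the variance prior.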

Additional observations from a re-analysis of the deposited data

Results flagged for a closer look

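Effects of NRG1 that differed between lines by a test of the difference itself were looked at again. The interaction term of the limma fit passed for 30 genes between CYT2 and vector cells. Between CYT1 and CYT2 cells it passed for MMP3, with a difference of -1.77 in the NRG1 effect. Groups of 2 samples were not tested for outliers.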

How the results depend on the processing

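The 30 genes, 22 of them with the larger part before the ligand, became 5 (3) on the authors' value table as deposited, 55 (41) with an offset of 50, 12 (8) with no filter on dim probes, 14 (9) and 4 (2) on technical arrays 1 or 2 only, 175 (129) on all arrays with the sample as a random block, 16 (9) in a fit of only vector and CYT2 samples, and 63 (47) with a trended, robust prior. With the biological replicate number as a replicate block 46 genes passed, 33 of them with the larger part before the ligand. Without single samples 1 to 47 genes passed, 0 to 37 of them before the ligand. Log2 quantile normalization (38 genes), the stricter detection filter (30), the mean over probes (26) and every probe tested on its own (28) stayed within 1.5 times. In that order 24, 29, 23 and 23 of the 30 genes were among those that passed, so similar counts did not mean the same genes. Without sample 1 of CYT1 cells with NRG1, which stood apart and was left out after seeing the data, 30 passed, 20 of them before the ligand. All 30 genes kept their sign under every setting, and 2 (MMP3 and F3) passed all 13 settings other than leaving out samples. In those 13 settings 26 genes kept the side of the larger part, while GJB2, FERMT2, MMP10 and HS3ST1 did not. Between no filter and the main filter, 20046 and 12357 genes were tested. The differences of EGFR and ERBB3, neither of which passed, changed sign, with ranges of -0.10 to 0.14 and -0.41 to 0.00957 when single samples were left out. The causes of these shifts were not tested. Signals near background limit MMP10, HS3ST1 and IL36G.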
